A study of Mus musculus with 32 samples.

Results

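The clustered histone genes encode the linker histone H1 and the core histones H2A, H2B, H3 and H4 from arrays of short genes. Every gene symbol of the count table that starts with Hist1h, Hist2h, Hist3h or Hist4h was taken, which gave 70 of 33924 genes. By type these were 6 H1, 20 H2A, 19 H2B, 12 H3 and 13 H4 genes. The Hist1 cluster on chromosome 13 held 56 of them, the Hist2 cluster on chromosome 3 held 10, the Hist3 cluster on chromosome 11 held 3, and Hist4h4 stands alone on chromosome 6. The 32 libraries were from mouse bone marrow whose Jak2V617F allele, a mutant of the Janus kinase JAK2 that drives myeloproliferative neoplasms, had been switched on ex vivo with Dre mRNA before transplant into lethally irradiated recipients. All groups share that history, and the recipients can keep some blood cells of their own. The groups of batch A were tamoxifen day 3 (4 MEP and 3 LSK libraries), tamoxifen day 7 (3 MEP, 4 LSK) and vehicle A (3 MEP, 4 LSK), where tamoxifen activates Cre and thereby deletes Jak2V617F. The groups of batch C were ruxolitinib day 7 (3 MEP, 3 LSK), a drug that inhibits JAK1 and JAK2, and vehicle C (3 MEP, 2 LSK). LSK cells are lineage negative, Sca1 and Kit positive cells, which include the stem cells, and MEP cells are progenitors of megakaryocytes and red cells. Vehicle stands at day 0 in the labels, and tamoxifen without a deletable allele is not described there, so treatment, tamoxifen itself and elapsed time cannot be told apart. The labels give neither the age of the mice nor the driver of Cre.

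Most clustered histone genes are expressed when a cell copies its DNA, because new nucleosomes are needed then. Their transcripts usually end just past a short stem-loop that the stem-loop binding protein SLBP recognises, and carry no poly(A) tail. Some of these genes can also yield transcripts with a poly(A) tail, and histone variants such as H2afz or H3f3b are expressed outside S phase from genes with introns. In marrow, erythroid progenitors are among the fastest dividing cells.

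The stem-loop was looked for first, since it sets which end a transcript can have. The 16-base histone stem-loop pattern, which reads GG, 2 free bases, CTT, a free base, T, a free base, AG, 2 free bases and CC on the transcript's strand, was present in the GENCODE M21 transcripts of 46 of the 70 genes, and in 161 (0.27%) of 58725 other protein-coding transcripts. The annotated transcript ran on for more than 100 bases past the loop in 23 of the 46 genes and stopped within 100 bases in the other 23, while 24 genes had no match. Only annotated transcripts were searched, and some models without a match are short, with 312 bases of exon in Hist1h4k and 381 in Hist2h2bb. A gene without a match can therefore still have a loop past its annotated end. The 10 sites below belong to genes that the results turn on. They are given 5′ to 3′ on the strand of the gene in mm10, with the 16 matching bases in capitals.
Hist1h1c (chr13:23739507-23739532, plus strand): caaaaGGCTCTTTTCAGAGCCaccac
Hist1h1e (chr13:23621777-23621802, minus strand): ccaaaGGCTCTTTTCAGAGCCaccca
Hist1h2ae (chr13:23570663-23570688, minus strand): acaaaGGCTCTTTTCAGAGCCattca
Hist1h2bg (chr13:23571838-23571863, plus strand): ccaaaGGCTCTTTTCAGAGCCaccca
Hist1h3g (chr13:23535884-23535909, plus strand): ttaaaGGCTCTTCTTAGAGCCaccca
Hist1h4d (chr13:23581945-23581970, plus strand): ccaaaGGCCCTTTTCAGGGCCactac
Hist1h4i (chr13:22040961-22040986, minus strand): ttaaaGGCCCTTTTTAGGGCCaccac
Hist2h2ac (chr3:96220413-96220438, minus strand): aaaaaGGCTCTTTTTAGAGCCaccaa
Hist3h2ba (chr11:58949344-58949369, plus strand): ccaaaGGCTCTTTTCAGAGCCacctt
Hist1h2ao (chr13:21810893-21810918, plus strand): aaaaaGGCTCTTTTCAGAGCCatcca
The transcript model ran for 840 bases past the loop in Hist1h1c, 1153 in Hist1h1e, 770 in Hist1h4d, 330 in Hist1h4i, 169 in Hist3h2ba, 155 in Hist1h2bg and 151 in Hist1h2ae. It ran for 57 bases in Hist2h2ac, 47 in Hist1h3g and 31 in Hist1h2ao.

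Promoter windows from RefSeq (GRCm38.p6, 250 bases before to 50 after the start) were matched to 62 of the 70 genes and searched on both strands for short motifs known from histone promoters. GGTCCG, within the site of the H4 activator HiNF-P, was found in 11 of 12 H4 windows (91.7%), against 8.23% of 32788 other promoters. CCAAT was found in all H1, H2A, H2B and H3 windows and in 3 of 12 H4 windows, against 37.3% of the others. AAACACA, the H1 box, was found in 5 of 6 H1 windows, against 7.17% elsewhere. The octamer ATTTGCAT was found in 7 of 16 H2B and 7 of 18 H2A windows, against 1.7% elsewhere, and TATAAA in 56.5% of the histone windows against 13.5%. The 3 windows below show the H1, H2B and H4 layouts, 5′ to 3′ on the gene's strand with every motif match in capitals on either strand. The Hist1h2bg window also covers the 175 bases between the start sites of Hist1h2bg and Hist1h2ae, which point away from each other.
Hist1h1e (RefSeq symbol H1f4, chr13:23622509-23622808, minus strand): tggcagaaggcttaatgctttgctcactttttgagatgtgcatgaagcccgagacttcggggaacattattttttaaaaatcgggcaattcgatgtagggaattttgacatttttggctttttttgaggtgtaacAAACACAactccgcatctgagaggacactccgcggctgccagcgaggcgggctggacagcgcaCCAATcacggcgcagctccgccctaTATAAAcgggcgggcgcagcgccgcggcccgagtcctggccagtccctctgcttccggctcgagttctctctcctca
Hist1h2bg (RefSeq symbol H2bc8, chr13:23571150-23571449, plus strand): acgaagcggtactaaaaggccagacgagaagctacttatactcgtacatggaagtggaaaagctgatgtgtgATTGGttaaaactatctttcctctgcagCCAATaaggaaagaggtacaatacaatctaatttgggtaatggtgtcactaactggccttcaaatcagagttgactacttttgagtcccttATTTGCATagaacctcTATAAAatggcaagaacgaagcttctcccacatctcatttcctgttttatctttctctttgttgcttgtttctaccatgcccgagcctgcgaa
Hist1h4i (RefSeq symbol H4c9, chr13:22041313-22041612, minus strand): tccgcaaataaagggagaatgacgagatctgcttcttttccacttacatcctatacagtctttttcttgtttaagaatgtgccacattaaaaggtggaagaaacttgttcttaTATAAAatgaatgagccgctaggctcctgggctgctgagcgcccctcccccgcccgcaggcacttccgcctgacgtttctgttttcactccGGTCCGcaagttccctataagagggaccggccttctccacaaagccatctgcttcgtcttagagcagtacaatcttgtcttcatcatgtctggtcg

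Clustered histone genes took 0.0132% to 0.0373% of the counts of a library, or 2283 to 18531 counts. The labels do not say whether the library kit primes on poly(A) tails, so how far transcripts without a tail were captured is not known. Levels, ranks and changes given here are therefore those of the captured transcripts. Hist2h2ab had no count, 36 genes averaged under 1 CPM and 8 averaged at least 10 CPM. A level in CPM is the read count scaled by the total and the TMM factor of its library. H2B genes took 29.8% of the histone CPM, H1 genes 26.3%, H4 genes 20.7%, H2A genes 19.1% and H3 genes 4.03%. Per kilobase of exon, Hist1h2ae (H2A) led with 34.7 CPM per kb, ahead of Hist1h4i (H4) with 24.8, Hist1h1b (H1) with 24.1 and Hist1h2bc (H2B) with 20.4. The 23 genes whose model runs more than 100 bases past the stem-loop held 59.6% of the histone CPM and 8 of the 12 highest genes. The 23 genes whose model stops near the loop held 11.2% and none of the 12 highest. Their medians per kilobase were close, at 1.92 and 2.10 CPM per kb, and the 24 genes without a match had a median of 0.826.

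**Figure D1:**
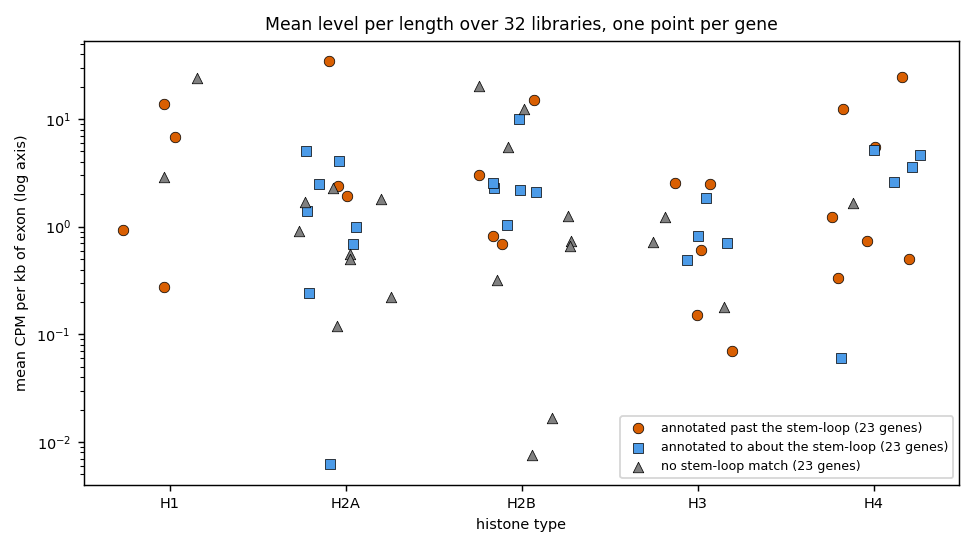
Mean level of each clustered histone gene over the 32 libraries in CPM per kilobase of exon (log axis), by histone type and by how far the annotated transcript runs past the stem-loop. Hist1h2ae is highest at 34.7 CPM per kb, and Hist2h2ab, with no count, is not drawn.

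Many of these genes are near copies of each other. At least 1 window of 100 bases was shared with another member in 60 genes, and over 50% of the windows in 25 genes. The median share of such windows was 64.5% in H2A, 40.0% in H3, 32.8% in H2B, 19.0% in H4 and 0.4% in H1 genes. The sources used here do not state how multiply aligned reads were counted, so values of single H2A and H3 genes are uncertain and sums by type are given beside them. Hist1h2ae alone held 54.3% of the H2A CPM over the 32 libraries, so the H2A sums are not separate from its own values. Hist1h1e and Hist1h2be overlap on the same strand and can hold each other's reads.

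Total counts were 11160696 to 28838622 per library in batch A and 26511752 to 55473241 in batch C. LSK vehicle A replicate 2 was the high outlier of its group in 16.7% of 9075 expressed genes outside the histone list, LSK tamoxifen day 7 replicate 4 in 4.22% and MEP tamoxifen day 3 replicate 1 in 2.27%. Values without 1 of these libraries are given where leaving it out changed a call or whether groups overlapped. A library score, the first component of the deviations of those 9075 genes from their group means, correlated at 0.82 with Hist1h2ae and at 0.77 with Hist1h1e over the 32 libraries, differences between groups included. Within groups the correlations were 0.56 and 0.34 in the same order, beside a median of 0.62 over the expressed genes. It lay between -1.9 and -0.918 in MEP day 7, between 0.834 and 1.57 in MEP ruxolitinib, between 0.221 and 1.15 in MEP vehicle C and between -0.716 and -0.00604 in MEP vehicle A. In LSK cells it lay between 0.979 and 1.77 under ruxolitinib, and between -1.48 and 1.72 over the other groups. The score thus differs between groups, without overlap for MEP day 7 and MEP vehicle A. As a covariate it can take up part of a group difference, so a call lost with it cannot be assigned to the score or to the treatment. In these bulk samples fewer cells of a type and less RNA per cell cannot be told apart. Nothing in the labels ties libraries of a group to separate cultures or litters, so p-values measure the spread between these samples.

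In MEP cells 7 days after the deletion, the H1 genes Hist1h1c and Hist1h1e, the H2B genes Hist3h2ba and Hist1h2bc and the H2A gene Hist2h2ac were lower than under vehicle. These 5 of 52 genes tested passed edgeR's quasi-likelihood test with Benjamini-Hochberg adjustment at 0.05, and none passed as higher in that fit. As higher, Hist1h4f passed with total counts, with pooled vehicles and in DESeq2, which also called Hist2h4. Over all genes 8.42% passed in either direction and 7.03% as lower, so the share of histone genes (9.62%) was near that of the table. Every day 7 library lay below every vehicle library in 13 of the 52 genes (25.0%), against 16.2% of all genes tested. The median log2 change was -0.26 for the 52 genes, 0.21 for all genes and -0.39 for genes of at least 10 CPM. In a fit of only the genes of at least 10 CPM, 19.1% of them passed as lower.

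Hist1h1c, a linker histone of most somatic cells, had 2.5, 1.77 and 2.1 CPM at day 7, against 10.2, 27.2 and 14.1 CPM in vehicle A. Hist1h1e, another somatic linker histone, had 0.555, 0.331 and 0.466 CPM at day 7, against 5.31, 13.5 and 7.09 CPM in vehicle A. The groups of both genes lay far apart. The fitted log2 change was -2.99 ± 0.33 (SE) for Hist1h1c (edgeR adjusted p = 3.77e-07) and -4.21 ± 0.46 for Hist1h1e (adjusted p = 3.74e-07). Both calls held in 9 of 9 alternative settings and without each library in turn. Hist1h1b, the most abundant H1 gene per kilobase, did not follow them, with 16.5 to 24.3 CPM at day 7 and 19.2 to 37.0 CPM in vehicle A (log2 change -0.32 ± 0.39, adjusted p = 0.707). Summed over the 6 H1 genes the level was 31.5 ± 5.78 CPM at day 7 and 62.5 ± 26.3 CPM in vehicle A (SD, n = 3 each), a ratio of 0.505 with no overlap.

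Among H2B genes, Hist3h2ba, from the small Hist3 cluster, had 0.278, 0.166 and 0.186 CPM at day 7, against 3.51, 3.64 and 3.03 CPM in vehicle A. Its vehicle libraries were tightly grouped and its log2 change of -3.95 ± 0.63 passed edgeR's test (adjusted p = 8.6e-05) in all 8 settings that tested it and without each library. The day 3 libraries lay between, with 0.425 to 1.18 CPM, below all vehicle libraries. That day 3 change, -1.93 ± 0.50, missed the threshold of edgeR's test (adjusted p = 0.0525) and passed it with RLE factors (0.0375), total counts (0.0472), no count filter (0.0415), the library score (0.0432) and the compared groups alone (0.0125). Hist1h2bc, the H2B gene with the highest CPM, had 15.7, 7.18 and 12.9 CPM at day 7 and 46.3, 24.7 and 19.5 CPM in vehicle A. Its change of -1.30 ± 0.37 (edgeR adjusted p = 0.0241) was lost with total counts (0.124) or the library score as a covariate (0.637), and without vehicle A replicate 1 or day 7 replicate 2 (up to 0.237). The H2B sum was 47.2 ± 5.57 CPM at day 7 and 73.1 ± 22.4 CPM in vehicle A, with no overlap, a log2 ratio of -0.63 that became -0.10 with total counts.

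The H2A and H4 genes moved less evenly at day 7. Hist2h2ac had 0, 0.166 and 0.186 CPM at day 7, against 0.361, 1.64 and 0.813 CPM in vehicle A, a change of -3.01 ± 0.78 (edgeR adjusted p = 0.0133). These are few counts, and the call was lost with total counts (0.0607), with the library score (0.0678), and without vehicle A replicate 2 or day 7 replicate 1 (up to 0.104). The H2A sum was 10.6 ± 0.98 CPM at day 7 and 10.7 ± 1.01 CPM in vehicle A. Hist1h4i, the leading H4 gene, had 13.9, 15.5 and 12.6 CPM at day 7 and 21.1, 27.7 and 22.4 CPM in vehicle A, which did not overlap but missed edgeR's threshold (log2 change -0.76 ± 0.28, adjusted p = 0.114). Hist1h4c went the other way, with 4.47 to 4.99 CPM at day 7 and 2.08 to 3.24 CPM in vehicle A (0.95 ± 0.48, adjusted p = 0.292). The H4 sum was 45.6 ± 1.47 CPM at day 7 and 55.7 ± 12.7 CPM in vehicle A, and its log2 ratio of -0.29 turned to 0.24 with total counts. The 8 H3 genes tested had changes of -2.45 to 0.56, and none passed.

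**Figure D2:**
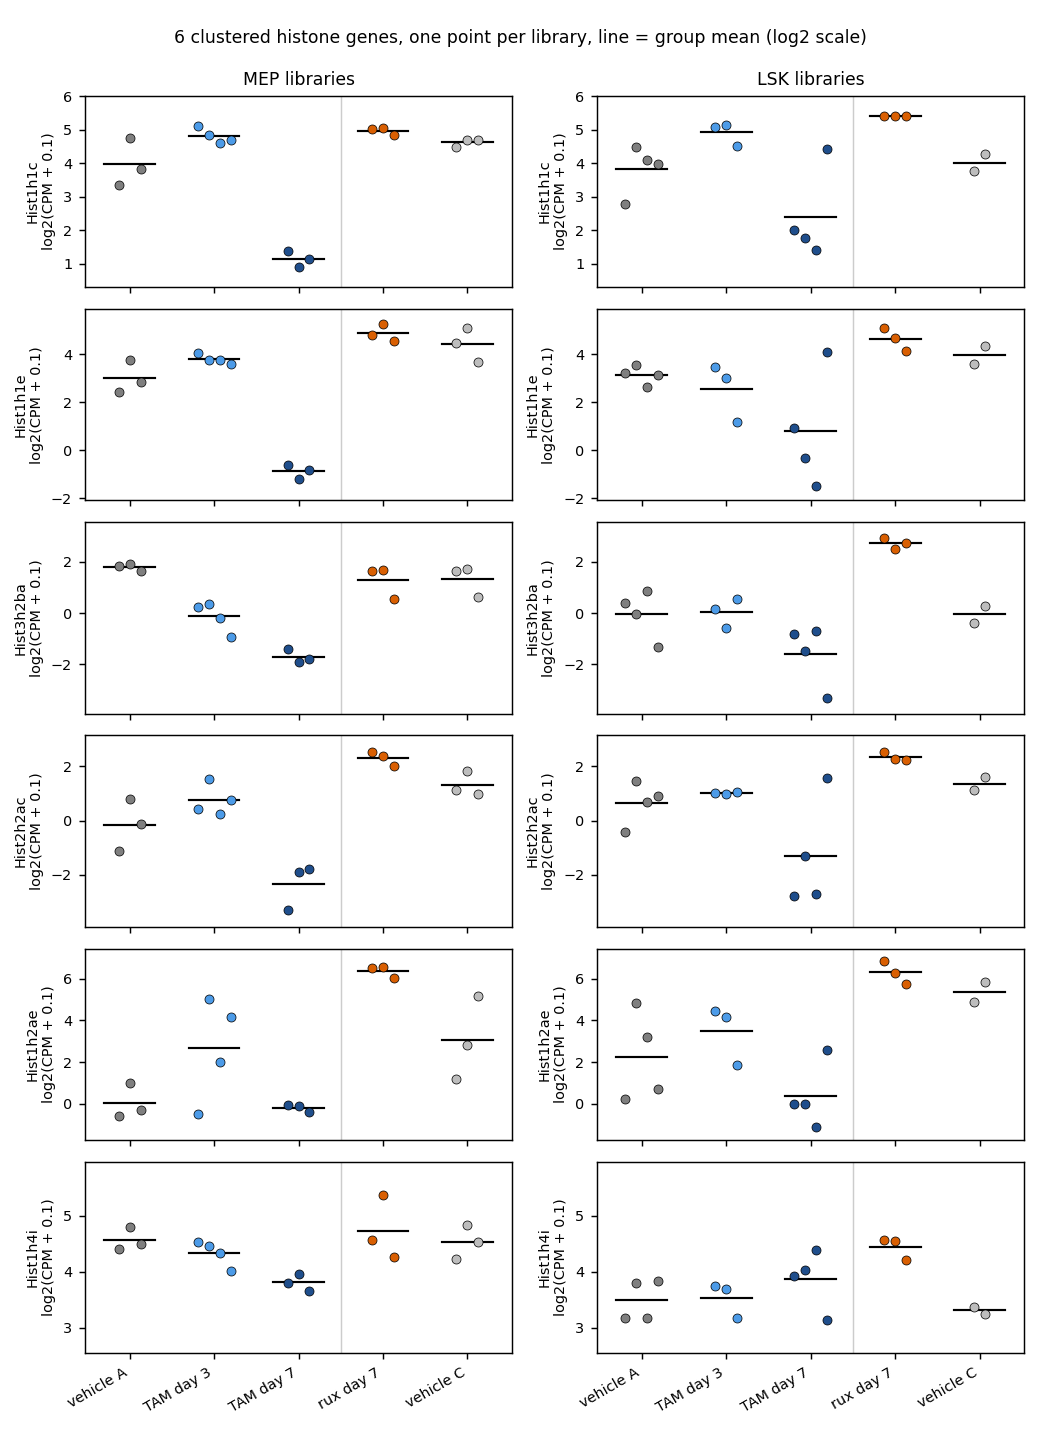
Level of 6 clustered histone genes in each of the 32 libraries on a log2 axis of CPM with a small constant added, with 1 point per library and a bar at the group mean. Among the MEP libraries the day 7 ones are lowest in Hist1h1c, Hist1h1e and Hist3h2ba, and LSK tamoxifen day 7 replicate 4 stands above the other 3 LSK day 7 libraries in Hist1h1c, Hist1h1e, Hist2h2ac and Hist1h2ae.

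Genes that make, carry or substitute for these histones were followed from lists of 17 genes of histone mRNA synthesis and processing, 11 replication-independent histones, 20 histone chaperones and 25 S phase genes. In MEP day 7, 6 of 17 tested genes of histone mRNA synthesis passed as lower and none as higher, with a median log2 change of -0.52 against 0.21 for all genes. Among them were Slbp (-0.86 ± 0.26, edgeR adjusted p = 0.0395), which binds the stem-loop, and cyclin E2, Ccne2 (-1.51 ± 0.28, adjusted p = 6.18e-04), which activates histone transcription with CDK2. Slbp averaged 365 ± 71.6 CPM at day 7 and 675 ± 77.6 CPM in vehicle A (SD, n = 3 each). Of the replication-independent histones 3 of 10 passed as lower, led by the centromeric H3 variant Cenpa (-2.25 ± 0.31, adjusted p = 1.4e-05). Of the chaperones 6 of 19 passed as lower, with Nasp, a carrier of H3 and H4 and of H1, at -1.16 ± 0.25 (adjusted p = 0.00244). Of the S phase genes 7 of 25 passed as lower, led by the ribonucleotide reductase subunit Rrm2 (-2.23 ± 0.27, adjusted p = 1.73e-06). No gene of these 4 lists passed as higher at day 7 in MEP cells. These counts stand beside the 7.03% of all genes that passed as lower, and the 19.1% in the fit of genes of at least 10 CPM.

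Other features of the MEP day 7 libraries moved along with these falls. The 8 MEP markers summed to 2113 to 3274 CPM at day 7, against 4723 to 6968 CPM in vehicle A, and 4 of 8 passed as lower and 1 as higher. The 9 LSK markers summed to 889 to 1339 CPM at day 7, against 310 to 642 CPM in vehicle A, and 4 passed as higher. Kit is in both of these marker lists, so their sums and counts are not independent. The 11 granulocyte and monocyte genes summed to 74.1 to 103 CPM at day 7 and 22.1 to 25.3 CPM in vehicle A, the 7 macrophage genes to 21.7 to 29.1 and 13.5 to 24.1 CPM, and the 9 B, plasma and T cell genes to 41.5 to 67.1 and 9.35 to 11.6 CPM. No gene of these lists was at 0 in either group. Olfactory and vomeronasal receptor genes, which marrow cells do not use, took 0.0832% to 0.191% of the counts at day 7 and 0.0381% to 0.0666% in vehicle A, and total counts were 11160696 to 20108752 at day 7 and 20749870 to 24083993 in vehicle A. The part of these features in the histone changes was not tested.

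In LSK cells 7 days after the deletion, 3 of 4 libraries had low levels of the same 2 H1 genes and 1 library did not. Hist1h1c had 3.9, 3.35, 2.54 and 21.6 CPM at day 7, against 6.8, 22.3, 17.1 and 15.5 CPM in vehicle A. Hist1h1e had 1.81, 0.686, 0.254 and 16.9 CPM at day 7, against 9.19, 11.4, 6.16 and 8.58 CPM in vehicle A. Replicate 4 alone lay inside or above the vehicle range in both genes, and the other 3 lay below it. Replicate 4 shares its animal label with MEP day 7 replicate 3, which was low, with 2.1 CPM of Hist1h1c and 0.466 CPM of Hist1h1e. Hist2h2ac had 0.0464, 0.3, 0.0509 and 2.89 CPM at day 7, again with replicate 4 apart, and 0.643, 2.69, 1.53 and 1.76 CPM in vehicle A. In Hist3h2ba replicate 4 was instead the lowest, with 0.464, 0.257, 0.509 and 0 CPM at day 7 and 1.19, 0.867, 1.71 and 0.294 CPM in vehicle A.

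With all 4 libraries none of 58 clustered histone genes passed edgeR's test at day 7, against 0.104% of all genes, while 11 had an unadjusted p under 0.05 and DESeq2 called Hist1h4m as higher. Without replicate 4, 5 of 59 passed as lower, Hist1h1c (-2.31 ± 0.34, edgeR adjusted p = 3.61e-04), Hist1h1e (-3.33 ± 0.60, 0.00226), Hist2h2ac (-3.64 ± 0.68, 0.0032), Hist1h2ae (-3.79 ± 0.92, 0.024) and Hist2h2aa2, and 3.2% of all genes then passed as lower. Replicate 4 was the highest day 7 library in each of these 5 genes, so leaving it out favours lower calls. These p-values describe the other libraries and are no separate test of a fall in LSK cells. Hist1h2ae had 0.882, 0.901, 0.356 and 5.96 CPM at day 7, against 1.06, 28.3, 8.98 and 1.52 CPM in vehicle A, where replicate 2 was the highest. The 11 H4 genes tested all had positive changes, 0.14 to 1.61, and the H4 sum was 48.1 ± 12.7 CPM at day 7 and 28.9 ± 5.95 CPM in vehicle A (n = 4 each), with overlap through replicate 4 alone (30.4 CPM). The H1 sum was 44.8 ± 15.3 and 45.1 ± 8.77 CPM in the same order. The granulocyte and monocyte genes summed to 7253 to 13759 CPM at day 7 and 1214 to 4611 CPM in vehicle A, with 4 of 10 passing as higher, and the part of those cells in the histone values was not tested. None of the 17, 11, 19 and 25 genes tested from the 4 lists of partners and S phase genes passed at LSK day 7.

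The difference between the responses of MEP and LSK cells was tested as an interaction over 60 genes. Many treated MEP and LSK libraries share an animal label, which edgeR's fit did not use. In a limma voom fit with the animal label as a random block, none of the 60 passed at day 3, at day 7 or under ruxolitinib. Of all genes 0.0282%, 0.183% and 0.074% passed there, in the same order. At day 7 none passed edgeR's test, against 0.458% of all genes, 10 had an unadjusted p under 0.05 and DESeq2 called Hist1h1e. The difference for Hist1h1e, MEP response minus LSK response, was -3.42 ± 1.06 (edgeR adjusted p = 0.15), and the median was -0.81 for the 60 genes and 0.22 for all genes. Without LSK vehicle A replicate 2, which stood apart, Hist2h2be passed. At day 3 none passed (0.0529% of all genes), 6 had an unadjusted p under 0.05 and DESeq2 called none. Under ruxolitinib none passed (0.292% of all genes), 4 had an unadjusted p under 0.05 and DESeq2 called Hist3h2ba.

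At day 3 after the deletion, H3 and H2A genes had the highest fitted changes in MEP cells, and 2 genes passed as higher of 52 tested. Over all genes 1.21% passed in either direction and 0.886% as higher. Hist1h3g, an H3 gene, had 0.429, 2.32, 0.466 and 2.59 CPM at day 3, against 0.0516, 0.133 and 0 CPM in vehicle A, without overlap (log2 change 4.46 ± 0.98, edgeR adjusted p = 0.0197). Hist1h2ae had 0.601, 32.3, 3.96 and 18.0 CPM at day 3, against 0.568, 1.91 and 0.723 CPM in vehicle A (3.70 ± 0.89, adjusted p = 0.0349). The day 3 libraries of Hist1h2ae were far apart, and replicate 1 lay within the vehicle range. Without vehicle A replicate 1 or 3, or day 3 replicate 2 or 4, neither gene passed. The Hist1h2ae call held in 4 of 9 alternative settings. It was lost without vehicle A replicate 2 (0.067), with RLE factors (0.0593), total counts (0.0589), the library score (0.0683) and the replicate block (0.0764). With vehicle C added to the vehicle group, both changes missed the threshold, at adjusted p of 0.60 for Hist1h3g and 0.698 for Hist1h2ae.

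All 8 H3 genes tested had positive changes at MEP day 3, 0.75 to 4.46, and the H3 sum was 8.8 ± 5.3 CPM at day 3 (n = 4) and 2.88 ± 0.84 CPM in vehicle A (n = 3), with overlap that ended without day 3 replicate 1 (3.35 CPM) or vehicle A replicate 2 (3.55 CPM). The H2A sum was 27.9 ± 18.9 and 10.7 ± 1.01 CPM in the same order, without overlap. Of these sums Hist1h2ae averaged 13.7 CPM at day 3 and 1.07 CPM in vehicle A. The H1 genes that fell by day 7 were not low at day 3. Hist1h1c had 24.1 to 34.7 CPM at day 3 and 10.2 to 27.2 CPM in vehicle A (0.75 ± 0.28, edgeR adjusted p = 0.335). Hist1h1e had 11.8 to 16.2 CPM at day 3 and 5.31 to 13.5 CPM in vehicle A (0.70 ± 0.35, adjusted p = 0.783). Of the partner lists, the variants H2afx (3.29 ± 0.82) and H2afj (2.28 ± 0.58) and the helicase subunit Mcm6 (1.73 ± 0.43) passed as higher, at edgeR adjusted p of 0.0451, 0.0499 and 0.0414. Replicate 1, which stood apart in other genes, was the highest in Hist1h2bg with 9.31 CPM against 4.35 to 4.8 CPM in the other day 3 libraries.

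In LSK cells at day 3 none of 58 genes passed edgeR's test, as did none of all genes (0%), with 8 histone genes at an unadjusted p under 0.05 and no DESeq2 call. The median log2 change was 0.58 against -0.02 for all genes, and 47 of 58 changes were positive. The H3 sum was 10.4 ± 3.65 CPM at day 3 (n = 3) and 5.48 ± 1.78 CPM in vehicle A (n = 4), with overlap that ended without vehicle A replicate 2 (8.06 CPM) or day 3 replicate 3 (6.51 CPM). Summed H2A genes had 36.2 CPM at day 3 and 22.0 CPM in vehicle A, a ratio of 1.65 that became 2.60 without vehicle A replicate 2. The macrophage genes summed to 1302 to 8240 CPM at day 3 and 102 to 3353 CPM in vehicle A, and their part in these values was not tested.

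The vehicle groups of batches C and A are both labelled vehicle, and their difference is the background for the ruxolitinib comparison. H2A and H3 sums averaged higher in vehicle C, whereas the H1, H2B and H4 sums of the batches overlapped. The H2A sum was 30.5 ± 21.1 CPM in MEP vehicle C and 10.7 ± 1.01 CPM in MEP vehicle A, and 68.3 ± 23.4 CPM in LSK vehicle C (n = 2) and 22.0 ± 16.8 CPM in LSK vehicle A (n = 4), with no overlap in either cell type. Without MEP vehicle C replicate 3, the log2 ratio of 1.52 in MEP cells became 0.80. Without LSK vehicle A replicate 2, which had 46.1 CPM, the ratio in LSK cells was 4.90 in place of 3.11. Of the H2A sums in MEP cells, Hist1h2ae averaged 15.0 CPM in vehicle C and 1.07 CPM in vehicle A. The H3 sum was 8.15 ± 5.33 CPM in MEP vehicle C and 2.88 ± 0.84 CPM in MEP vehicle A with overlap, a ratio of 2.83 that became 1.84 without MEP vehicle C replicate 3, and 12.9 ± 2.83 CPM in LSK vehicle C and 5.48 ± 1.78 CPM in LSK vehicle A without.

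Between the vehicle batches 3 of 52 genes passed as higher in MEP cells, where 3.52% of all genes passed and 2.75% as higher. Hist1h2ae had 2.15, 7.03 and 35.9 CPM in MEP vehicle C, against 0.568, 1.91 and 0.723 CPM in MEP vehicle A (3.64 ± 0.91, edgeR adjusted p = 0.0258). Hist1h3g (4.13 ± 1.0, 0.0224) and Hist1h1e (1.36 ± 0.37, 0.0414) also passed. The vehicle libraries of the 2 batches carry the same animal numbers, which the fit behind these calls did not use. With those numbers as a block, Hist1h1e (1.29 ± 0.32, 0.0226) and Hist1h2ae (2.97 ± 0.67, 0.0115) passed of 38 genes tested. Without MEP vehicle A replicate 1 or 3 no gene passed, and without vehicle C replicate 3 only 1 did. None passed with total counts, with the library score or with the compared groups alone. In LSK cells 1 of 58 passed, Hist1h2ao, with 0.254 and 2.11 CPM in vehicle C and 0 to 0.0463 CPM in vehicle A, against 0.772% of all genes and 0.728% as higher. It had 70 counts in vehicle C and 1 in vehicle A, a ratio of 101 with an exact 95% counting interval of 17.6 to 4049, and 92.7% of its windows are shared with other members. It did not pass without LSK vehicle C replicate 2 or LSK vehicle A replicate 1, 3 or 4. In the blocked fit of 43 LSK genes, Hist1h2ae passed as higher (2.59 ± 0.59, adjusted p = 0.0291) and Hist1h1b as lower (-1.48 ± 0.36, 0.0381). In LSK cells 23 of 58 genes (39.7%) had every vehicle C library above every vehicle A library, against 7.7% of all genes.

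**Figure D3:**
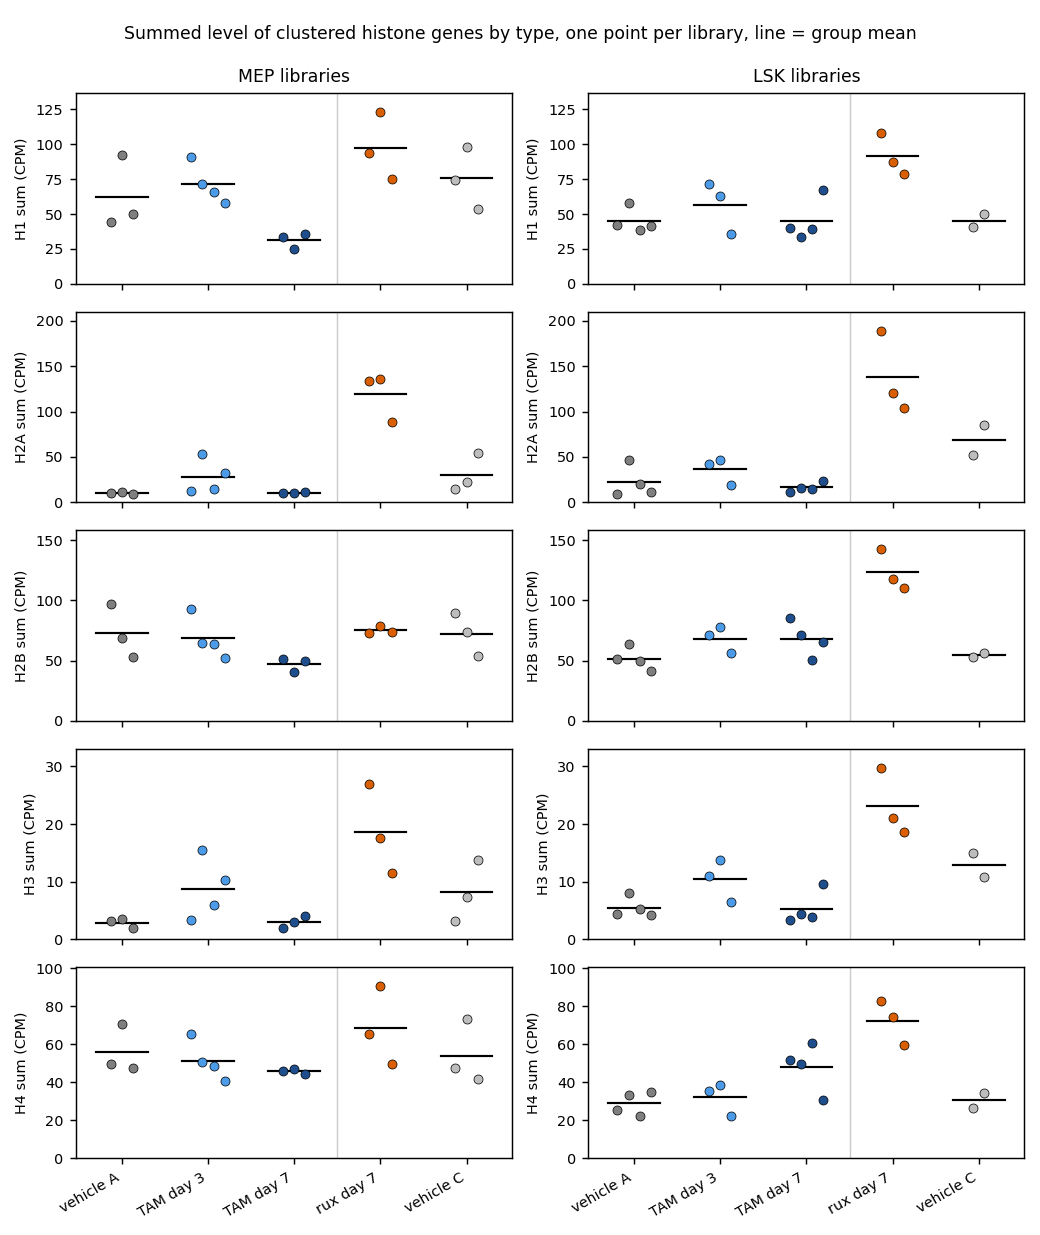
Summed CPM of the H1, H2A, H2B, H3 and H4 genes in each library, with 1 point per library and a bar at the group mean. The H2A sum ranges from 88.9 to 189 CPM under ruxolitinib, from 14.5 to 84.8 CPM in vehicle C and from 9.42 to 53 CPM in the groups of batch A.

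Under ruxolitinib, MEP cells had higher levels of several H2A and H3 genes, on top of the shift between the vehicle batches. Hist1h2ae had 90.9, 95.4 and 65.4 CPM under ruxolitinib, against 2.15, 7.03 and 35.9 CPM in vehicle C, with no overlap (log2 change 2.59 ± 0.81, edgeR adjusted p = 0.0137). Hist1h3c, an H3 gene, had 1.54, 0.824 and 1.16 CPM under ruxolitinib and 0.157, 0.182 and 0.374 CPM in vehicle C (2.33 ± 0.72, adjusted p = 0.0122). Hist1h2ao (2.84 ± 0.91, 0.0164), Hist1h2ap (2.29 ± 0.86, 0.0346) and Hist1h3b (2.40 ± 0.96, 0.0461) also passed, with ruxolitinib libraries that overlapped vehicle C. Of their windows, Hist1h2ao shares 92.7% and Hist1h2ap 92.2% with other members. The testis gene Hist1h2aa passed as lower with 0 counts under ruxolitinib and 1, 15 and 0 counts in vehicle C. A floor of 3 counts over the ruxolitinib group would make it 5.98-fold lower. The exact 95% counting interval of the ratio was 0 to 0.231, which allows a smaller fall. The call and these values rest on vehicle C replicate 2, which held 15 of the 16 vehicle counts, and without it the gene fell under the count filter.

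In all, 5 of 52 clustered histone genes passed as higher and 1 as lower in MEP cells under ruxolitinib. Over all genes 42% passed, 3.43% as higher and 38.5% as lower, and the median log2 change was 0.51 for the histone genes, -1.07 for all genes and 0.12 for genes of at least 10 CPM. The count rested on single vehicle libraries. It was 1 without vehicle C replicate 1 or replicate 2, 15 without replicate 3, in which Hist1h2ae was high, and 2 without ruxolitinib replicate 2. No gene passed with the library score as a covariate or when only genes of at least 10 CPM were fitted. For Hist1h2ae the adjusted p reached 0.115 over 9 alternative settings. The H2A sum was 120 ± 26.6 CPM under ruxolitinib and 30.5 ± 21.1 CPM in vehicle C (SD, n = 3 each), a ratio of 3.92 with no overlap. Of these sums Hist1h2ae averaged 83.9 CPM under ruxolitinib and 15.0 CPM in vehicle C. The H3 sum was 18.7 ± 7.76 and 8.15 ± 5.33 CPM in the same order, a ratio of 2.29 with overlap. Without vehicle C replicate 3 the ratios were 6.44 for H2A and 3.52 for H3, the H3 groups then without overlap. The H1, H2B and H4 ratios were 1.29, 1.04 and 1.27 with overlap.

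The H1 genes that were low at MEP day 7 were not low under ruxolitinib. Hist1h1c had 28.6 to 33.1 CPM under ruxolitinib and 22.4 to 25.9 CPM in vehicle C (0.37 ± 0.29, edgeR adjusted p = 0.322), and Hist1h1e 22.9 to 38.5 and 12.7 to 33.6 CPM (0.37 ± 0.36, adjusted p = 0.43). Hist3h2ba had 1.36 to 3.13 CPM under ruxolitinib and 1.46 to 3.21 CPM in vehicle C. The day 7 and ruxolitinib comparisons have separate vehicle groups and batches, and the difference between them was not tested. Of the partner lists in MEP cells under ruxolitinib, 4 of 10 replication-independent histones passed as higher, among them H2afv (1.37 ± 0.33, edgeR adjusted p = 0.00265) and H2afj (1.79 ± 0.58, 0.0163). The S phase genes Cdt1 (1.46 ± 0.43, 0.00982) and Pold1 (1.04 ± 0.29, 0.00709) passed as higher of 25. Npat (-0.64 ± 0.24, 0.0384), the activator of histone transcription, passed as lower of 17, and the chaperone Atrx (-0.80 ± 0.24, 0.00953) as lower of 19. H2afv and H2afj were also higher in MEP vehicle C than in vehicle A (1.49 ± 0.34 and 2.70 ± 0.61, adjusted p = 0.0161 and 0.0157). Receptor genes took 0.00131% to 0.00421% of the counts under ruxolitinib and 0.0091% to 0.0321% in vehicle C, and total counts were 40278670 to 55473241 and 34392354 to 39667533, whose part was not tested.

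Markers of other cells also moved in MEP cells under ruxolitinib. The 11 granulocyte and monocyte genes summed to 70.5 to 237 CPM under ruxolitinib, with 1 of them at 0, and 8.15 to 21.6 CPM in vehicle C, and 5 of 10 tested passed as higher and 3 as lower. The 9 LSK markers summed to 839 to 901 CPM under ruxolitinib and 228 to 604 CPM in vehicle C, with 3 passing as higher. The 9 B, plasma and T cell genes summed to 9.1 to 19.6 and 3.78 to 8.85 CPM in the same order, with 2 of 8 tested higher and 3 lower. The 7 macrophage genes summed to 7.71 to 21.8 and 8.11 to 12.3 CPM, and the 8 MEP markers to 5475 to 7348 and 6643 to 9647 CPM, each list with 1 gene higher and 1 lower. The part of these markers in the histone values was not tested.

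In LSK cells under ruxolitinib, sums of all 5 histone types were 1.80 to 2.38 times those of vehicle C, yet no single gene passed the test. The H1 sum was 91.4 ± 15.2 CPM under ruxolitinib (SD, n = 3) and 45.2 ± 6.57 CPM in vehicle C (n = 2), a ratio of 2.02. The H2A sum was 138 ± 44.9 and 68.3 ± 23.4 CPM in the same order, and the H2B sum 123 ± 16.8 and 54.5 ± 2.41 CPM. The H3 sum was 23.2 ± 5.81 and 12.9 ± 2.83 CPM, and the H4 sum 72.3 ± 11.9 and 30.3 ± 5.29 CPM. In none of the 5 types did the groups overlap. The ratios of H2A, H2B, H3 and H4 were 2.02, 2.27, 1.80 and 2.38. The sums were given no test.

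Of the 58 genes tested 55 had positive changes, with a median of 1.17 against -0.25 for all genes and 0.15 for genes of at least 10 CPM. Every ruxolitinib library lay above both vehicle C libraries in 37 of the 58 (63.8%), against 8.55% of all genes tested and 14.2% of genes of at least 10 CPM. None passed edgeR's test, against 0.0223% of all genes, while 16 had an unadjusted p under 0.05, and DESeq2 called Hist1h2bj, Hist3h2ba and Hist4h4 as higher. Hist3h2ba had 7.57, 5.62 and 6.51 CPM under ruxolitinib and 0.667 and 1.12 CPM in vehicle C (2.87 ± 0.89, edgeR adjusted p = 0.456). Hist1h4i had 23.5, 23.5 and 18.4 CPM under ruxolitinib and 10.2 and 9.44 CPM in vehicle C (1.14 ± 0.36, adjusted p = 0.472). Hist1h1c had 42.4, 42.3 and 42.3 CPM under ruxolitinib and 13.5 and 19.2 CPM in vehicle C (1.37 ± 0.70, adjusted p = 0.566). The treated libraries lay above vehicle C in all 3 of these genes.

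Hist1h2bc, an H2B gene, had 43.6, 40.6 and 38.0 CPM under ruxolitinib in LSK cells and 14.3 and 19.8 CPM in vehicle C (1.25 ± 0.45, edgeR adjusted p = 0.521). Hist4h4, the lone gene on chromosome 6, had 2.89, 4.45 and 3.82 CPM under ruxolitinib and 1.11 and 1.29 CPM in vehicle C (1.62 ± 0.56, adjusted p = 0.505). The 2 vehicle libraries differed from each other, with library scores of 0.031 and 1.72, and the ruxolitinib scores of 0.979 to 1.77 lay within or above them. No gene passed in the 4 partner lists. The S phase list had a median log2 change of 0.44 and the list of histone mRNA synthesis one of 0.21, against -0.25 for all genes. The granulocyte and monocyte genes summed to 3494 to 7660 CPM under ruxolitinib and 1614 to 5961 CPM in vehicle C, and the LSK markers to 3927 to 4700 and 2097 to 5038 CPM, whose part was not tested.

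**Figure D4:**
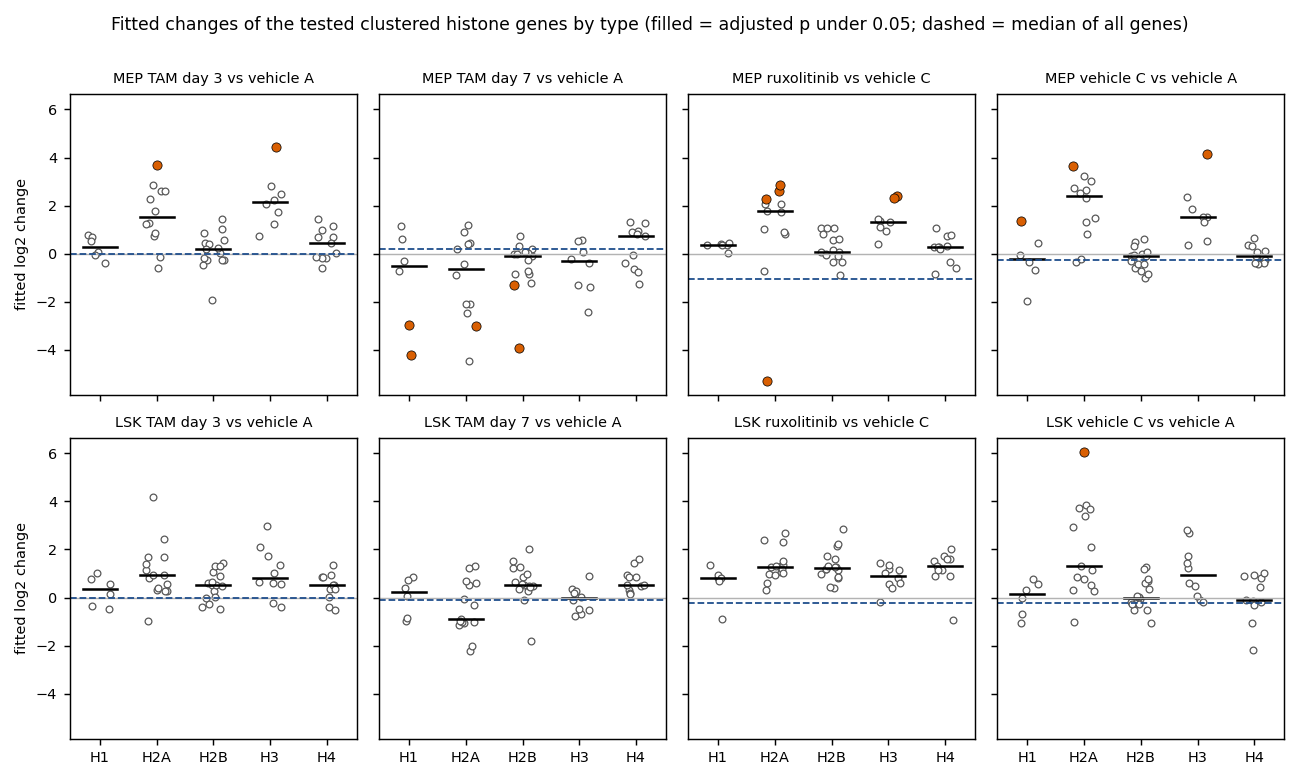
Fitted log2 change of each tested clustered histone gene in 8 comparisons by histone type, with filled points for adjusted p under 0.05 in edgeR's test, a solid bar at the median of the type and a dashed line at the median of all genes. In LSK ruxolitinib 55 of 58 points are positive and none is filled, and in MEP tamoxifen day 7 the 5 filled points are all negative.

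MEP cells were compared with LSK cells under vehicle, which describes the difference between the sorted cells. The H4 genes Hist1h4i and Hist1h4k and the H2B gene Hist1h2bh passed as higher in MEP cells in both batches. Every vehicle C library shares its animal label with a vehicle A library, so by those labels the batches are not separate sets of animals. Hist1h4i had 21.1, 27.7 and 22.4 CPM in MEP vehicle A and 8.92, 13.8, 8.94 and 14.2 CPM in LSK vehicle A (1.02 ± 0.28, edgeR adjusted p = 0.00843). In batch C it had 18.8, 28.4 and 23.0 CPM in MEP cells and 10.2 and 9.44 CPM in LSK cells (1.36 ± 0.35, adjusted p = 0.00567). The groups did not overlap in either batch.

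In vehicle A, Hist1h4d had 15.3, 27.8 and 16.4 CPM in MEP cells and 8.55, 10.1, 5.65 and 8.38 CPM in LSK cells (1.25 ± 0.35, edgeR adjusted p = 0.00959). Hist3h2ba had 3.03 to 3.64 CPM in MEP cells and 0.294 to 1.71 CPM in LSK cells (1.70 ± 0.56, adjusted p = 0.031). Hist1h2ae (-3.20 ± 1.09, 0.0375) and Hist1h3g (-2.99 ± 0.99, 0.0316) passed as lower in MEP cells. Both calls ended without LSK vehicle A replicate 2, MEP vehicle A replicate 1 or MEP vehicle A replicate 3, at adjusted p of up to 0.240. They also ended in a limma voom fit with the animal label as a random block, at limma adjusted p of 0.347 for Hist1h2ae and 0.0504 for Hist1h3g, where the correlation between libraries of an animal was 0.0449. Summed H2A genes had 10.7 CPM in MEP vehicle A and 22.0 CPM in LSK vehicle A, a ratio of 0.485. It became 0.766 without LSK vehicle A replicate 2, and the groups overlapped with and without that library. Together 5 of 60 genes passed as higher and 2 as lower, where 8.7% and 8.71% of all genes did, 17.4% in all. In vehicle C, 5 passed as higher, among them Hist1h1b (1.75 ± 0.57, 0.0308) with 10.4 to 29.3 CPM in MEP cells and 4.14 and 8.71 CPM in LSK cells, and Hist1h2bp. Hist1h2ac passed as lower (-1.69 ± 0.44, 0.00587). Of all genes 8.09% passed as higher there and 8.46% as lower, 16.6% in all.

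The counts between cell types also moved with single libraries and with scaling. The calls of Hist1h4i, Hist1h4d and Hist3h2ba in vehicle A ended without MEP vehicle A replicate 2 (edgeR adjusted p up to 0.115) and with total counts. That of Hist3h2ba also ended without MEP replicate 1, LSK replicate 2 or LSK replicate 4 of vehicle A, and with the replicate block. It held in 3 of 7 fits with 1 library left out, against 6 of 7 for Hist1h4i and for Hist1h4d. The Hist1h4i call in vehicle C ended without LSK vehicle C replicate 2 (0.0849) and with total counts (0.0824). It also ended with the compared groups alone (0.262) and with the replicate block (0.805). In vehicle A 7 genes passed with all libraries, 4 without MEP replicate 1 or LSK replicate 2 and 3 without MEP replicate 2. In vehicle C 6 passed with all, 2 without LSK replicate 1 or MEP replicate 1, 1 without LSK replicate 2 and 3 without MEP replicate 2. Of 25 S phase genes 14 passed as higher in vehicle A and 13 in vehicle C, of 17 genes of histone mRNA synthesis 6 in each, and of 19 chaperones 5 and 7. None of these 3 lists had a gene that passed as lower. Of 11 replication-independent histones 3 passed as higher and 1 as lower in vehicle A, with a median of -1.12, and 1 as higher and 2 as lower in vehicle C, with a median of -1.39. Slbp was higher in MEP cells by 1.10 ± 0.29 in vehicle A (edgeR adjusted p = 0.00522), and cyclin E1, Ccne1, by 2.52 ± 0.35 (1.95e-06).

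Some divergent neighbours differed widely in level. In 14 cases an H2A and an H2B gene start within 500 bases of each other and point apart, and Hist1h2ae and Hist1h2bg have 175 bases between their start sites. Hist1h2ae ranged from 0.356 to 115 CPM over the 32 libraries and Hist1h2bg from 1.90 to 19.6 CPM. In MEP ruxolitinib Hist1h2ae had 65.4 to 95.4 CPM and Hist1h2bg 4.35 to 5.24 CPM, against 2.15 to 35.9 and 2.87 to 6.18 CPM in MEP vehicle C. The correlation of their log2 levels over the 32 libraries, which differ in batch, depth and cell type, was 0.11, and that of Hist1h2ac with Hist1h2bc, 250 bases apart, was 0.09. Over the 14 cases it ran from -0.25 to 0.66, the highest for Hist1h2ag with Hist1h2bj. These are descriptions of libraries that share groups.

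**Figure D5:**
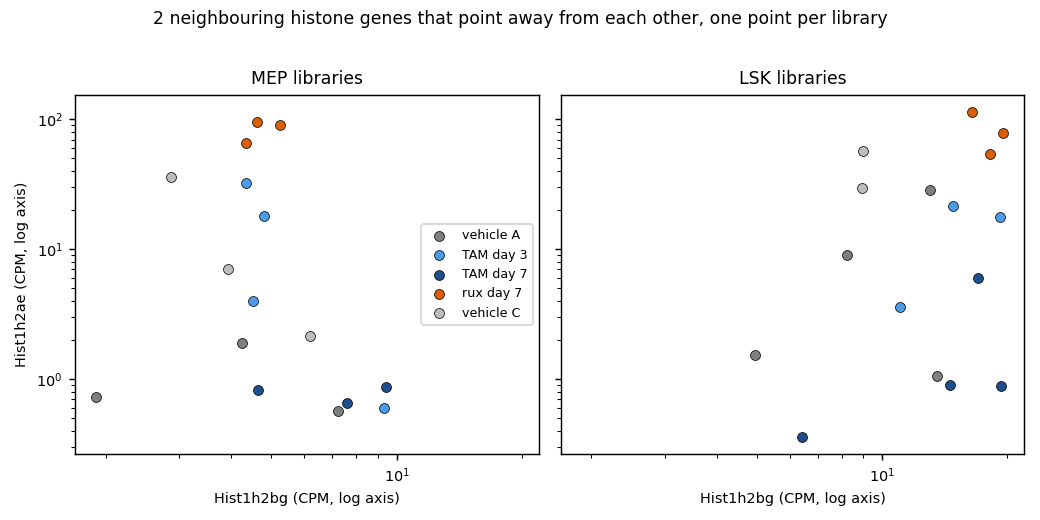
Level of Hist1h2ae against that of Hist1h2bg, its divergent neighbour, in the 32 libraries on log axes of CPM, coloured by group. Hist1h2ae spans 0.356 to 115 CPM while Hist1h2bg spans 1.90 to 19.6 CPM, and the ruxolitinib libraries lie at the high end of Hist1h2ae.

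Genes known for expression in testis stayed near the bottom of the range. Hist1h1t, the testis linker histone, had at most 0.714 CPM in any library, Hist1h2aa at most 0.686 CPM and Hist1h2ba at most 0.472 CPM. Apart from Hist1h2aa under ruxolitinib in MEP cells, a call that rests on 1 vehicle library, none of them passed in a treatment comparison, and Hist1h2ba fell under the count filter within each cell type. Among H3 genes Hist1h3d was highest, with 3.69 to 12.5 CPM in MEP ruxolitinib and 0.43 to 6.65 CPM in MEP vehicle C (1.30 ± 0.68, edgeR adjusted p = 0.13). In LSK cells it had 6.93 to 11.4 CPM under ruxolitinib and 4.13 and 3.77 CPM in vehicle C (1.16 ± 0.63, adjusted p = 0.579).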

How the data were processed

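RNA was measured by paired-end sequencing in sorted LSK and MEP cells, from libraries made with a Takara HT-Seq kit, per the labels' protocols. The authors deposited whole-number read counts per gene, made with STAR and featureCounts on mm10 per the submitters' processing notes. The sources used here do not state their versions, the annotation, the use of strand or the treatment of multiply aligned reads. All 32 columns of counts were matched to samples by name, and 0 columns were left out. Of 33924 genes 933 had no count.

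Counts were fitted with edgeR 4.0.16 in R 4.3.3 (quasi-likelihood F test, TMM factors, filterByExpr with a minimum count of 10, Benjamini-Hochberg adjustment over all genes tested, threshold 0.05). The 16 LSK and the 16 MEP libraries were fitted separately with 1 mean per group, and all 32 together for MEP against LSK and for differences of responses. SE were derived from the fitted change and F. DESeq2 1.42.0 and limma 3.58.1 were used for alternatives. The fit was tested on simulated data. Sums by type got no test. Stem-loops were searched in GENCODE M21 transcripts and promoters taken from RefSeq (GRCm38.p6). The lowest total was 11160696 and the highest 55473241 counts, of which 2283 to 18531 fell on clustered histone genes. Values of single genes with few counts therefore have wide errors, and the counting interval covers counting error only.

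The genes, lists and tests were chosen with earlier results of these data known. Genes named with values are the 3 highest of each type, those called under a treatment (the 4 highest rises and 4 highest falls where over 8 were called), the testis genes and Hist4h4. Other genes were named after their values were seen, as were the sequences shown. Alternatives were RLE factors, total counts, no count filter, DESeq2, the compared groups alone, pooled vehicle batches, a replicate block and each library left out in turn. Fitting only genes of at least 10 CPM and the library score as a covariate were added after seeing the data.

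Replicate numbers were checked as pairs by correlating deviations from group means. Treated and vehicle libraries of a number were not treated as pairs (-0.34 to 0.39), nor were MEP and LSK vehicle libraries (0.000361 to 0.202), since most carry different animal labels. Exceptions with 1 shared label are MEP and LSK replicate 1 of vehicle A, the same of vehicle C, and replicate 2 of LSK day 7 and vehicle A. Treated MEP and LSK libraries also share animal labels, all of those under ruxolitinib and some of those at day 3 and day 7. The main edgeR fits took all of these libraries as separate. All 3 MEP and both LSK vehicle C libraries share number and animal label with a vehicle A library. Their correlations were 0.158 to 0.626 in MEP and 0.521 to 0.622 in LSK cells. For the shift between batches, the main fit did not use these pairs, and only the alternative with the replicate block did. No pair of libraries of a group agreed within sampling noise, the lowest chi-square per degree of freedom being 13.7.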

Additional observations from a re-analysis of the deposited data

Results flagged for a closer look

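Of 90 group values tested for a single library apart from its group of 4, 13 were flagged, where chance flags about 1 in 20. That rate does not hold for genes with few counts, where 1 read can set a library apart. LSK tamoxifen day 7 replicate 4 was high in 7 of the 13 flags. It had 21.6 CPM of Hist1h1c (2.54 to 3.9 in the other 3 libraries), 16.9 of Hist1h1e (0.254 to 1.81), 5.96 of Hist1h2ae (0.356 to 0.901), 3.12 of Hist1h3e (0.371 to 0.661) and 2.89 of Hist2h2ac (0.0464 to 0.3). It also had 0.0904 CPM of Hist1h2ap, with 0 in the others, and an H3 sum of 9.53 CPM (3.44 to 4.46). The same library was the high outlier of its group in 4.22% of expressed genes outside the histone list.

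LSK vehicle A replicate 2 was high in Hist1h1t with 0.33 CPM (0.184 to 0.196 in the others), in Hist2h2be with 17.0 CPM (6.53 to 8.29) and in the H1 sum with 58.0 CPM (38.7 to 41.9), and it was the high outlier in 16.7% of expressed genes. LSK vehicle A replicate 3 had 0.0463 CPM of Hist1h2ao, from 1 count, and the others 0. LSK vehicle A replicate 4 was low in Hist1h3d with 0.245 CPM (1.71 to 1.84). MEP tamoxifen day 3 replicate 1 was high in Hist1h2bg with 9.31 CPM (4.35 to 4.8).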

How the results depend on the processing

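With all libraries 0 genes passed for LSK day 3, LSK day 7, LSK ruxolitinib and the differences of responses, 2 for MEP day 3, 5 for MEP day 7, 6 for MEP ruxolitinib, 1 and 3 for LSK and MEP vehicle C against A, and 7 and 6 for MEP against LSK in vehicle A and C. With total counts 3 passed for MEP ruxolitinib, 0 for LSK and 0 for MEP vehicle C against A, and 4 and 3 for MEP against LSK. With genes of at least 10 CPM only, and so fewer histone genes, 1 passed for MEP day 3, 3 for MEP day 7, 0 for MEP ruxolitinib, 0 for LSK and 0 for MEP vehicle C against A, and 4 and 3 for MEP against LSK. With the library score 3 passed for MEP day 7, 0 for MEP ruxolitinib, 0 for LSK and 0 for MEP vehicle C against A. DESeq2 called 1 for LSK day 7, 3 for LSK ruxolitinib, 1 for MEP day 3, 12 for MEP ruxolitinib, 4 and 5 for LSK and MEP vehicle C against A, 1 for the difference at day 7 and 1 under ruxolitinib. With the compared groups alone 4 passed for MEP day 3, 2 for MEP ruxolitinib, 0 for LSK and 0 for MEP vehicle C against A and 0 for MEP against LSK in vehicle C. Without the count filter 3 passed for MEP against LSK in vehicle C. With both vehicle batches pooled 25 passed for LSK ruxolitinib, 0 for MEP day 3, 12 for MEP day 7 and 18 for MEP ruxolitinib, where 20.6%, 0.87%, 19.6% and 57.9% of all genes passed. That fit counts vehicle libraries of the same animal label as separate replicates, so its n exceeds the animals and its p-values can be too small. It also sets treated libraries against vehicle libraries of the other batch, so the shift between vehicle batches enters these counts. With the replicate block 2 passed for LSK vehicle C against A, 1 for MEP day 3, 3 and 1 for MEP against LSK in vehicle A and C, and 5 for MEP ruxolitinib. Apart from the batch shift, whose blocked values stand with it, most equal numbers carry different animal labels.

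Leaving out each library in turn gave 0 to 5 calls for LSK day 7, 0 to 3 for MEP day 3, 4 to 5 for MEP day 7, 1 to 15 for MEP ruxolitinib, 0 to 2 for LSK and 0 to 4 for MEP vehicle C against A, 3 to 6 and 1 to 5 for MEP against LSK in vehicle A and C, and 0 to 1 for the difference at day 7. Leaving out a LSK vehicle C library leaves 1, which is assumed to vary like the other groups. For the sums, total counts changed the log2 ratio in LSK ruxolitinib to 0.77 for H1 and 0.91 for H2B (1.02 and 1.18 with TMM). In MEP day 7 they gave -0.50 for H1, 0.51 for H2A (0.20 with RLE), -0.10 for H2B, 0.63 for H3 and 0.24 for H4, against -0.99, -0.01, -0.63, 0.09 and -0.29 with TMM. In LSK vehicle C against A they gave -0.46 for H1, -0.38 for H2B and -0.44 for H4, and in MEP cells -0.44 for H4. The H2A sum of MEP vehicle C against A ranged from 0.80, without vehicle C replicate 3, to 1.86 on leaving out each library. Total counts moved the median of all genes by 0.52 at MEP day 7, -0.24 and -0.23 under ruxolitinib in MEP and LSK cells, -0.35 and -0.37 between vehicle batches, and -0.45 and -0.52 between MEP and LSK cells, so changes are relative to the scaling used. Of 3345 values of named genes under the alternatives, 203 changed sign, none of them called. With few counts in most H3 and H2A genes, small changes were not detectable at this depth, and the cause of the differences between settings was not tested.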
